A study of Homo sapiens with 96 samples.

Results

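A549 cells, an established human lung adenocarcinoma line of epithelial origin, were grown with 1 µM GSK591, a small-molecule inhibitor of PRMT5, for 2 days or with 0.01% DMSO, the solvent, for 4 days, and their poly(A) RNA was sequenced. The comparison rests on 6 of the series' 96 samples, 3 libraries of each group, and covers every skipped exon (SE), mutually exclusive exon pair (MXE), alternative 3′ splice site (A3SS) and alternative 5′ splice site (A5SS) listed for them by rMATS, a program that counts the reads that support each of the 2 forms of an event. These were 128039 events of the 132452 listed for the same 6 libraries, and the other 4413 were retained introns (RI), which appear below only as a reference. Both groups came from the same line, and the labels name no allele or transgene in either. The GSK591 libraries were taken on day 2 and the DMSO libraries on day 4, so the agent and the day cannot be told apart within this comparison. Nothing in the labels used here ties the 3 libraries of a group to separate cultures, so the p-values rest only on the spread between these libraries. For SE and A3SS this spread was pooled over all events, so an event's own spread does not enter its p-value. The libraries of a group are called a, b and c by their place in the deposited lists. Further A549 libraries, 3 per group, are set beside this comparison below. Cells of these groups had 1 µM GSK591 for 7 days or 0.01% DMSO for 7 days. The other such group had 1 µM MS023, an inhibitor of type I PRMTs, for 2 days.

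PRMT5 places symmetric dimethyl marks on arginines, and among its substrates are the Sm proteins that form the core of the spliceosome's small nuclear ribonucleoproteins. A cassette exon is joined to its neighbours only when the spliceosome recognises both its 3′ splice site, with a pyrimidine tract ahead of an AG, and its 5′ splice site, which pairs with U1 snRNA around a GU, so weak sites and short exons depend on activators such as SR proteins. Where a transcript offers a choice between 2 donor sites (A5SS), 2 acceptor sites (A3SS) or 2 exons (MXE), a change in that choice moves sequence into or out of the mRNA, and it may alter the protein or bring a premature stop that sends the mRNA to nonsense-mediated decay.

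Ψ is the share of the inclusion form after each form's reads were divided by its effective length, from 0 to 1, and ΔΨ is the mean Ψ of the 3 GSK591 libraries minus that of the 3 DMSO libraries. Inclusion means the exon present for SE, the longer form for A5SS and A3SS, and the exon that comes first in the transcript for MXE. An event was tested where every library held at least 10 reads on it and its less used form held at least 10 reads over the 6 libraries. It was called at an adjusted p under 0.05 in a moderated quasi-binomial test.

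Sequences are shown for 6 alternative segments that recur below, because their length, reading frame and splice sites are what the choice between the forms changes. They were read from the hg19 (GRCh37) genome. Capitals mark the alternative segment, and the lower-case letters are the adjacent bases: for the exons, 20 bases of the intron before and 6 bases of the intron after.
SUN1 cassette exon, coding, 111 nt, chr7:889540-889676, plus strand: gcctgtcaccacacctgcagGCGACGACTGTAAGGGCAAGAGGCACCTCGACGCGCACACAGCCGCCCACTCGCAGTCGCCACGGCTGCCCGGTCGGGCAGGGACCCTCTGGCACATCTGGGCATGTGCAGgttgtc
MDM4 exon 6, coding, 68 nt, chr1:204506538-204506631, plus strand: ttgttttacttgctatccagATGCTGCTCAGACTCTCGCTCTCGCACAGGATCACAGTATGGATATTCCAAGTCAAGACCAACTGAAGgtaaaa
CD47 exon 8, coding, 32 nt, chr3:107770780-107770837, minus strand: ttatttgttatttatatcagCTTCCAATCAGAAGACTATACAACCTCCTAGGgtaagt
DNM1L exon 16, coding, 33 nt, chr12:32891178-32891236, plus strand: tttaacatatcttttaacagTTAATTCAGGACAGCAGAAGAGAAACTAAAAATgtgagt
MGAT4B exon 12, the 15 nt between its 2 acceptor sites, chr5:179225565-179225611, minus strand: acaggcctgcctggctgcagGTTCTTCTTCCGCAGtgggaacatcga
HNRNPC, the 39 nt between 2 donor sites of a coding exon, chr14:21699111-21699167, minus strand: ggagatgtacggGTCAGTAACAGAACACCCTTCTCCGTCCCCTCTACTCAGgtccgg
In MGAT4B the lower-case letters after the segment are exon, and in HNRNPC those before it are exon. The segments of SUN1, DNM1L, MGAT4B and HNRNPC are multiples of 3, so either form keeps the reading frame, whereas the 68 nt of MDM4 and the 32 nt of CD47 are not.

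In GSK591-treated cells exons were mostly skipped more often. Of 92696 SE listed, 32133 were tested and 4817 were called, 15% of those tested. Ψ was lower with GSK591 in 3929 of them (12.2% of those tested) and higher in 888 (2.76%). They belonged to 4406 distinct exons of 26316 tested (16.7%) and to 2712 genes of 8563 (31.7%). The median absolute ΔΨ of the called SE was 0.0805, and 2028 of them (6.31% of those tested) moved by at least 0.1, 825 by at least 0.2 and 306 by at least 0.3. The 3 libraries of one group all lay beyond the 3 of the other in 4277 of the called SE, and in 9056 of all tested, 28.2%.

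Donor and acceptor choice moved mainly towards the longer form. Of 2714 A5SS tested (5007 listed) 658 were called, 24.2%, with the longer form used more in 412 (15.2%) and less in 246 (9.06%). Among A3SS, 283 of 4246 tested (7440 listed) were called, 6.67%, of which 174 (4.1%) moved to the longer form and 109 (2.57%) away from it. In MXE, 387 of 19302 tested (22896 listed) were called, 2%, split into 200 (1.04%) in which the first exon gained and 187 (0.969%) in which it lost. For reference, 1021 of 3400 RI tested were called, 30%, and 932 of them were retained more with GSK591.

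The size of these counts depended on the test more than on any library. Under limma on the log ratio of both forms, 646 SE were called (97 higher), 222 A5SS (121 higher), 59 MXE and 4 A3SS. With an event's own spread used where it exceeded the shared one, 3764 SE, 566 A5SS, 306 MXE and 205 A3SS were called. Leaving out 1 library gave 3597 to 4072 SE, 523 to 569 A5SS and 198 to 245 A3SS. The MXE count fell to 173, 198 and 191 without DMSO a, b and c and to 233 without GSK591 b. It rose to 443 without GSK591 a.

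**Figure D1:**
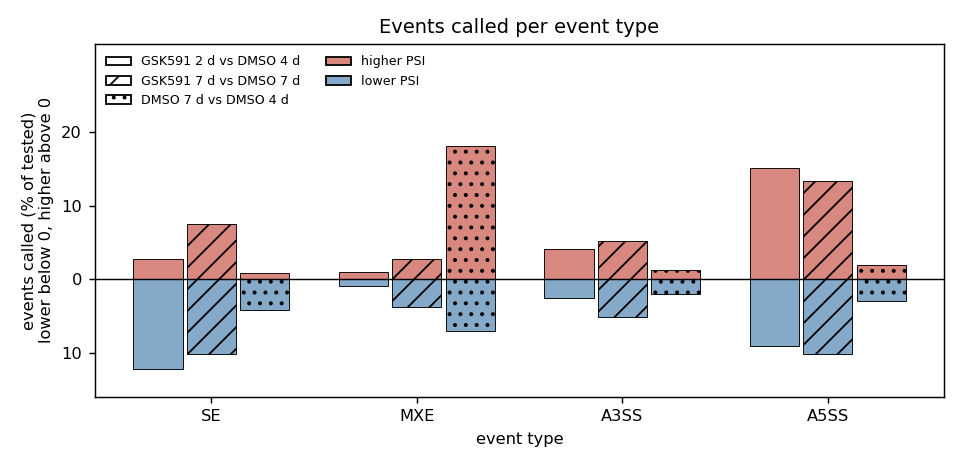
Share of tested events called with higher Ψ (above 0) and lower Ψ (below 0), in percent, for each event type and 3 comparisons: GSK591 at 2 days against DMSO at 4 days, GSK591 at 7 days against DMSO at 7 days, and DMSO at 7 days against DMSO at 4 days. At 2 days, 12.2% of SE were called lower and 2.76% higher, against 9.06% and 15.2% of A5SS.

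Averaged over all events tested, the shift was small against the changes of single events. Mean Ψ over the tested SE was 0.733, 0.734 and 0.732 in DMSO a, b and c and 0.714, 0.714 and 0.714 in the GSK591 libraries. Each GSK591 library lay below each DMSO library, and the difference was −0.0195 (two-sided exact permutation p = 0.1, the smallest that 3 against 3 libraries allow). The mean rose by 0.0136 for A5SS and by 0.00539 for A3SS, again with no overlap and an exact permutation p of 0.1. For MXE the groups overlapped, with a difference of −0.00201 (exact permutation p = 1) that turned to 0.0048 without GSK591 a, whose mean of 0.459 lay below the 0.48 and 0.478 of b and c.

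The DMSO libraries of another day show how far controls can differ. The labels of the 7-day counts do not name the day of their control, which was taken as the 7-day DMSO libraries. Each result below that uses 7-day DMSO rests on this reading. Cells in DMSO for 7 days, compared with those in DMSO for 4 days, differed in 1429 of 28545 SE tested, 5.01%. They also differed in 136 A3SS (3.29%), 130 A5SS (4.92%) and 2608 of 10367 MXE (25.2%). With GSK591 at 2 days 387 of 19302 MXE were called, 2%, but the MXE tested were not the same in both comparisons. The 7-day counts come from a separate rMATS list, in which only 64511 of the 92696 SE listed at 2 days had counts. Over these SE the 7-day libraries held 35965530 to 39041729 reads. The 2-day GSK591 and 4-day DMSO libraries held 51231837 to 66423861 over all 92696, so these sums do not compare the depth of the libraries. The SE count was 712 without the 7-day DMSO library a and 732 without b. Of the called SE that could be tested there, 619 of 4023 (15.4%) were also called between the DMSO days, against 5.39% of all. The 4-day DMSO libraries are part of both comparisons, which favours such overlap, here and wherever the DMSO days are set beside GSK591 below. With the 7-day controls added, 2856 of 4645 called SE (61.5%) had all 3 GSK591 libraries beyond all 6 DMSO libraries, against 15.7% of all SE. The 4-day libraries among these 6 are those the calls were made against, and 4277 of the 4817 called SE lay apart from them. The excess over all SE is thus partly set by the calling. Events of the epithelial keratins KRT7, KRT8 and KRT18 were listed with reads in all 6 libraries, whereas no event was listed for EPCAM, nor for PTPRC, PECAM1 or DES, markers of leukocytes, endothelium and muscle. The tables list alternative events only, so a gene without one may still be expressed.

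Among called exons with at least 50 reads in every library, and with 1 exon taken per gene, the largest drops in inclusion were in SNHG1, SUN1, TMEM256-PLSCR3, WRAP73, HSD3B7, SDR39U1, NUP62 and OGFOD2. In SNHG1, a long noncoding RNA that hosts snoRNAs in its introns, Ψ of the 51-nt exon 4 was 0.828, 0.828 and 0.848 in DMSO and 0.337, 0.337 and 0.385 with GSK591, on 521 to 1026 reads. All GSK591 libraries lay far below all DMSO libraries (ΔΨ = −0.48, adjusted p = 4.41e-84). SUN1, which links the inner nuclear membrane to the cytoskeleton, included the 111-nt exon printed above at 0.723, 0.734 and 0.75 in DMSO and at 0.29, 0.199 and 0.304 with GSK591. The groups did not overlap (ΔΨ = −0.47, adjusted p = 6.45e-41).

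The exon of 221 nt in TMEM256-PLSCR3, a readthrough transcript that shares its exons with PLSCR3 so that the reads cannot be assigned to one of them, went from 0.643, 0.68 and 0.718 to 0.292, 0.192 and 0.16. WRAP73, a WD-repeat protein of the centrosome, had 0.831, 0.867 and 0.892 for its 135-nt exon 7 in DMSO and 0.485, 0.342 and 0.444 with GSK591. Neither pair of groups overlapped, and ΔΨ was −0.47 (adjusted p = 1.9e-33) in the first and −0.44 (adjusted p = 8.55e-16) in the second. In HSD3B7, an enzyme of bile acid synthesis, the 365-nt exon lay at 0.717, 0.917 and 0.949 and fell to 0.35, 0.537 and 0.377 on only 60 to 78 reads (adjusted p = 0.000185).

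SDR39U1, a short-chain dehydrogenase, included its 122-nt exon at 0.723, 0.757 and 0.724 in DMSO and at 0.248, 0.341 and 0.298 with GSK591 (adjusted p = 4.96e-27). NUP62, a protein of the nuclear pore's central channel, has a 155-nt untranslated exon whose Ψ was 0.809, 0.802 and 0.81 in DMSO and 0.288, 0.419 and 0.431 with GSK591 (adjusted p = 4.54e-21). In OGFOD2, a 2-oxoglutarate-dependent oxygenase, a 184-nt coding exon was near full inclusion in DMSO, at 0.874, 0.964 and 0.945, and near an even split with GSK591, at 0.468, 0.528 and 0.542 (adjusted p = 1.93e-12). All 8 of these exons separated the groups completely, as did 4277 of the 4817 called SE.

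Most of the 8 exons that gained most by the same rule lay outside the coding frame. SPG20, which encodes spartin, included a 72-nt untranslated exon at 0.381, 0.321 and 0.221 in DMSO and at 0.693, 0.806 and 0.713 with GSK591 (ΔΨ = 0.43, adjusted p = 3.12e-17). NDEL1, a partner of dynein, included a 250-nt untranslated exon at 0.192, 0.146 and 0.167 in DMSO and at 0.589, 0.577 and 0.563 with GSK591 (ΔΨ = 0.41, adjusted p = 1.63e-25). The spread over the NDEL1 libraries was 0.0227 in DMSO and 0.0128 with GSK591 (SD, n = 3 each), far below the change.

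In DCAF8, a substrate receptor of CUL4 ubiquitin ligases, a 66-nt untranslated exon rose from 0.461, 0.39 and 0.491 to 0.765, 0.789 and 0.804 (adjusted p = 6.58e-06). TMEM175, a lysosomal cation channel, used a 205-nt untranslated exon at 0.145, 0.197 and 0.144 in DMSO and at 0.431, 0.625 and 0.513 with GSK591 (adjusted p = 2.59e-07). In TMEM53 the 270-nt coding exon was at 0.528, 0.82 and 0.54 in DMSO, and no skipping read was counted in any GSK591 library, on 55, 67 and 74 reads, which allows a skipped share of up to 13.3%, 11.2% and 10.2% by counting error alone (adjusted p = 2.46e-05).

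The other 3 were annotated in no protein-coding transcript. NISCH, the imidazoline-receptor-like protein nischarin, had a 159-nt exon at 0.505 ± 0.108 in DMSO and 0.899 ± 0.0499 with GSK591 (SD, n = 3 libraries each). SLC38A6, a member of an amino acid transporter family, had a 637-nt exon marked for nonsense-mediated decay that went from 0.308, 0.431 and 0.299 to 0.622, 0.63 and 0.929, so that GSK591 c lay apart from a and b. In FAM45A a 259-nt exon went from 0.436 ± 0.111 to 0.813 ± 0.0834. None of the 3 overlapped, with adjusted p of 4.28e-06, 0.000758 and 9.92e-05.

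**Figure D2:**
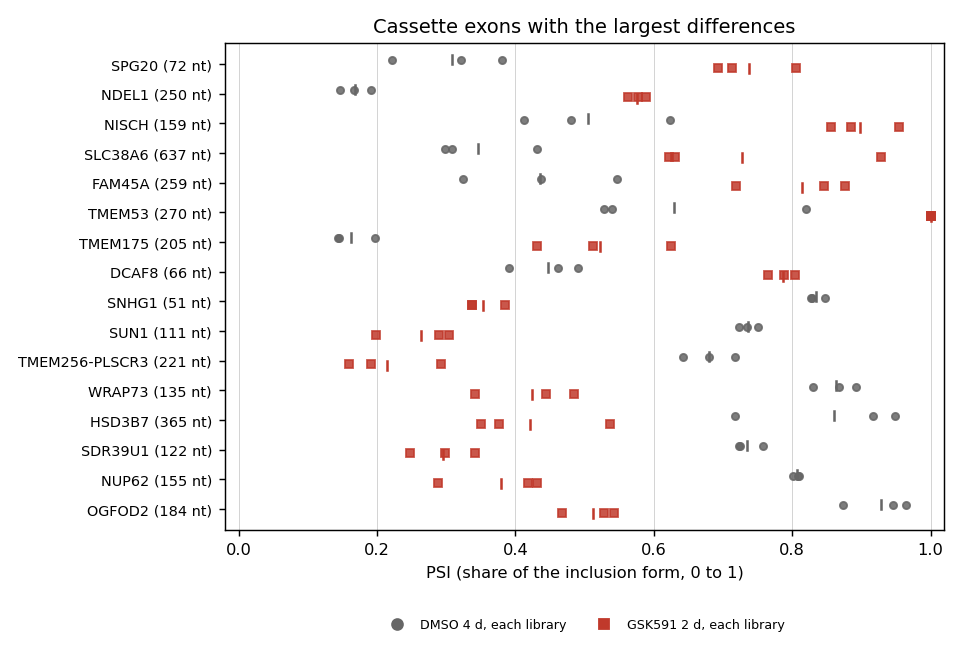
Ψ (horizontal axis, 0 to 1) of the 16 skipped exons with the largest changes among called exons with at least 50 reads in every library, 8 higher and 8 lower, with a circle for each DMSO library, a square for each GSK591 library and a short vertical line at each group's mean. No exon's groups overlap, as in most called SE. The spread is widest in the GSK591 libraries of SLC38A6 (SD 0.175), followed by the DMSO libraries of TMEM53 (SD 0.165).

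Under limma, 7 of these 16 lost the call, namely SPG20, NISCH, SLC38A6, FAM45A, TMEM175, DCAF8 and HSD3B7, with adjusted p between 0.0551 and 0.138, whereas leaving out any 1 library ended none of the 16 calls. The comparison of DMSO at 7 and at 4 days shares its 4-day libraries with that of GSK591, which favours a shared direction. There 6 of the 15 that could be tested were called in the same direction, beside 5.01% called among all SE. Their differences there were 0.131 for SPG20, 0.215 for FAM45A, −0.138 for SNHG1, −0.11 for SUN1, −0.136 for SDR39U1 and −0.17 for NUP62, each smaller than with GSK591.

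Exons that fell and exons that rose started from different places. Median Ψ in DMSO was 0.948 among the called SE that fell, close to the 0.943 of all SE tested, and 0.247 among those that rose. Among exons at 0.9 or above in DMSO, 2545 were called and 93.7% of these fell, whereas among exons under 0.1 the calls split into 328 higher and 332 lower. An exon near full inclusion has little room to rise, so these shares describe the starting level as well as the direction.

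The annotated role of the exons differed too. Exons that are coding in every protein-coding transcript that holds them made up 68.5% of the called SE that fell, 34.7% of those that rose and 60.3% of all tested. Of 3000 called coding exons 308 rose, 10.3%, against 196 of 486 untranslated exons, 40.3%, and 149 of 410 exons that are held only by transcripts outside the protein-coding class and marked for nonsense-mediated decay, 36.3%. Median Ψ in DMSO over the tested exons of these classes was 0.971, 0.242 and 0.0693, in the same order. The part of this starting level in the shares was not tested. Exons of 27 nt or less, often called microexons, were 3.04% of the SE that rose and 1.16% of all, and exons over 300 nt were 10.1% of those that rose and 4.48% of all.

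Called exons lay beside shorter introns than tested exons as a whole. The median upstream and downstream introns were 1113 and 1089 nt for SE called lower and 1506.5 and 1680.5 nt for SE called higher, against 2167 and 2054 nt over all tested. Where both introns were 300 nt or shorter, 455 of 1450 SE were called and 435 of them fell, which is 30.0% of those tested. The share called lower was 19.3% with one such intron, 10.1% with both over 300 nt and at least one of 3000 nt or less, and 8.43% with both over 3000 nt. With one event per exon the outer shares were 30.4% and 7.84%. Among SE at or above the median read count they were 32.6% and 10.2%. The read count in an event's least covered library had a median of 230 for exons between short introns and 124 for exons between long ones.

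The same order held in the 7-day libraries, from 32.3% with both introns short to 6.46% with both long. Between the DMSO days it ran the other way, from 1.17% to 5.05%.

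Splice site strength also went with the direction. A score was computed for each site as the log2 likelihood of its bases under all annotated human sites against equal base use, so a higher score means a sequence closer to the usual site. The median 5′ splice site score was 7.15 bits for SE that fell, 8.04 bits for those that rose and 7.84 bits over all tested. The share called lower was 15.2%, 14.5%, 11.6% and 7.61% from the lowest to the highest of 4 equal groups of exons by score. Restricting the exons to those at Ψ of 0.9 or more in DMSO left 16.1%, 14.9%, 11.9% and 8.08%, and the 7-day libraries gave 13.9%, 12.1%, 9.79% and 6.98%.

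At the 5′ splice sites of SE that fell, the third intron base was G in 41.4%, against 33.6% of all and 28.6% of those that rose, and the last exon base was G in 75.0%, against 79.4% and 83.7%. The 3′ splice site score differed less, with medians of 8.56 bits among SE that fell, 8.53 bits among those that rose and 8.92 bits among all. Exon GC content had a median of 53.7% among SE that fell and 50.5% over all tested. The SUN1 exon printed above is an example of weak sites, with 1.69 bits at its 5′ site, whose intron begins gttgtc, and 4.32 bits at its 3′ site.

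**Figure D3:**
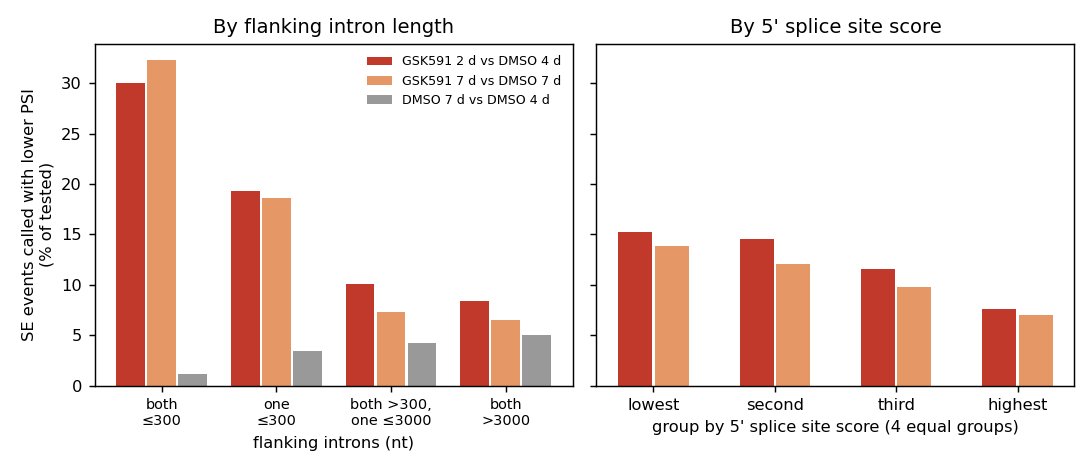
Percent of tested SE called with lower Ψ, by the length of the 2 flanking introns (left, 3 comparisons) and in 4 equal groups by 5′ splice site score (right, GSK591 at 2 and at 7 days). With GSK591 at 2 days the bars go from 30.0% to 8.43% across the intron classes and from 15.2% to 7.61% across the score groups.

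Some genes lost several exons. The called SE lay in 2709 gene symbols, of which 1720 had one called exon, 989 had more and 83 had at least 5. LAMA5, a laminin chain of basement membranes, had 11 called exons of 26 tested and all 11 fell. IDH3B, a subunit of the mitochondrial isocitrate dehydrogenase, had 8 of 10, all lower, and PARPBP, KIAA0195 and ACADVL also moved in one direction, with 8 of 12, 8 of 12 and 7 of 9 exons called and all of them lower. Exons of ADAM15, a membrane metalloprotease with a known cluster of alternative exons, went both ways, with 3 of 8 lower. These genes were picked after their counts were seen, and exons of one gene share its reads.

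Donor and acceptor choices and exon pairs are named by the same minimum of 50 reads in every library, 1 per gene. Among such donor choices NT5C, a cytosolic 5′ nucleotidase, moved most to the longer form. Its Ψ for the 80-nt segment was 0.199, 0.215 and 0.21 in DMSO and 0.594, 0.616 and 0.63 with GSK591 (ΔΨ = 0.40, adjusted p = 9.47e-59), with no overlap and a spread of at most 0.0181 (SD, n = 3). ABCC3, a transporter of organic anions, used a donor 50 nt farther on in transcripts marked for nonsense-mediated decay at 0.391, 0.52 and 0.372 in DMSO and at 0.854, 0.791 and 0.792 with GSK591 (adjusted p = 2.44e-07). In FIGNL1, an AAA ATPase, the longer untranslated exon 2 went from 0.446, 0.413 and 0.377 to 0.757, 0.874 and 0.719 (adjusted p = 1.32e-05).

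Under that minimum, the 3 largest moves away from the longer donor form were in PCNT, TMEM256-PLSCR3 and FXYD5. PCNT encodes the centrosomal scaffold pericentrin, and the last 237 coding nt of its exon 38 were kept at 0.832, 0.726 and 0.798 in DMSO and at 0.346, 0.361 and 0.317 with GSK591 (ΔΨ = −0.44, adjusted p = 1.36e-11). FXYD5, a regulator of the sodium pump and of cell adhesion, went from 0.796, 0.772 and 0.75 to 0.413, 0.419 and 0.391 on 841 to 1541 reads (adjusted p = 1.28e-63). The 503-nt segment of TMEM256-PLSCR3 went from 0.664 ± 0.0731 to 0.278 ± 0.056 (adjusted p = 9.21e-16). No group overlapped another in these 6 events, as in 601 of the 658 called A5SS, and all 6 stayed called under limma.

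The distance between the 2 sites went with the share called. Donor pairs 5 to 50 nt apart were called in 197 of 1020, of which 150 moved to the longer form and 47 to the shorter, and pairs more than 50 nt apart in 446 of 1563, with 256 longer and 190 shorter. Acceptors 3 nt apart or closer were called in 6 of 638 A3SS (0.940%), against 207 of 1962 (10.6%) more than 50 nt apart. Most of these close pairs were exactly 3 nt apart, the tandem sites that can add or drop a single amino acid. The donor with the higher score gained use in 378 of 653 called A5SS (57.9%), against 51.6% of all A5SS tested, and the acceptor with the higher score in 150 of 283 called A3SS, against 50.4% of all.

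Of the acceptor choices with at least 50 reads in every library, that of RNF216, a ubiquitin ligase, moved most. A 269-nt extension annotated only in a transcript marked for nonsense-mediated decay had Ψ of 0.0706, 0.0702 and 0.0326 in DMSO and 0.581, 0.616 and 0.522 with GSK591 (ΔΨ = 0.52, adjusted p = 7.4e-42). The rare form in DMSO was thus the commoner one in all 3 GSK591 libraries. WBP1, a WW-domain-binding protein, rose from 0.43, 0.523 and 0.466 to 0.894, 0.911 and 0.859 (adjusted p = 9.62e-06), and STAG3L4, a copy related to a cohesin gene and so uncertain in its reads, rose from 0.197 ± 0.046 to 0.536 ± 0.0583 (adjusted p = 1.84e-11).

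MGAT4B, a glycosyltransferase that branches N-glycans, joined its exon 12 at the upstream of the 2 acceptors printed above at 0.987, 0.949 and 0.968 in DMSO and at 0.719, 0.537 and 0.619 with GSK591 (ΔΨ = −0.34, adjusted p = 1.3e-17). The shorter form, without the 15 nt, was thus minor in every DMSO library and came near an even share in GSK591 b. In PRPF40B, a U1-associated splicing factor, the form with a 413-nt extension went from 0.663 ± 0.0439 to 0.335 ± 0.0824 (adjusted p = 0.000568). C1orf63, which encodes a protein rich in arginine and serine, went from 0.829, 0.866 and 0.778 to 0.584, 0.502 and 0.352 (adjusted p = 1.31e-06), but the same event differed by −0.308 between DMSO at 7 and at 4 days, about as much as the −0.345 seen with GSK591. Of these 6 acceptor events all but RNF216 lost the call under limma, with adjusted p of 0.0637 to 0.127.

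Reads of a retained intron and of the longer form overlap where the segment lies inside that intron. Segments inside an intron called more retained were 22 of the 174 A3SS that lengthened, 12.6%, against 2.10% of all A3SS tested, 27 of the 412 A5SS that lengthened, 6.55% against 2.47%, and 10 of the 888 SE that rose. Among the named donor and acceptor events, those of TUBGCP6 and DDX11 lay in such introns. Outside such introns, 629 A5SS were called (385 longer, 244 shorter), 260 A3SS (152 and 108) and 4805 SE (878 higher, 3927 lower). A flanking intron called more retained stood beside 190 of the 3929 SE that fell, 4.84%, against 1.62% of all SE.

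Most called MXE shared an exon with a called SE. Of the 387 called MXE, 245 (63.3%) held an exon that was also a called SE, against 16.9% of all MXE tested. SUN1 and SNHG1 led here too, under the same read minimum. The 84-nt exon of SUN1 had Ψ of 0.226, 0.175 and 0.191 against the 111-nt exon in DMSO and 0.592, 0.77 and 0.664 with GSK591 (adjusted p = 0.000253), and the 84-nt exon 3 of SNHG1 rose against exon 4 from 0.367, 0.398 and 0.311 to 0.781, 0.785 and 0.787 (adjusted p = 8.37e-06). TOMM40, the channel of the mitochondrial outer membrane, used its 77-nt exon 7 rather than a 245-nt exon at 0.0793, 0.0192 and 0.0377 in DMSO and at 0.325, 0.571 and 0.473 with GSK591 (adjusted p = 0.00797).

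The other 3 pairs moved the other way. EEF1D, an elongation factor subunit, went from 0.63, 0.649 and 0.764 to 0.324, 0.422 and 0.338 (adjusted p = 0.00131), FAM98C from 0.883, 0.881 and 0.898 to 0.63, 0.647 and 0.627 (adjusted p = 0.0112), and MPPE1, a phosphoesterase that trims GPI anchors, from 0.44 ± 0.047 to 0.194 ± 0.0359 (adjusted p = 0.0496). All 6 pairs separated the groups, as did 386 of the 387 called MXE and 17.6% of all MXE tested. Under limma SUN1, SNHG1 and FAM98C stayed called, whereas TOMM40, EEF1D and MPPE1 did not, with adjusted p of 0.0591, 0.0812 and 0.0629. TOMM40 lost the call without DMSO c, FAM98C without DMSO a, b or c, and MPPE1 without any one of the 6 libraries. Of 233 called MXE that could be tested between the DMSO days, 87 (37.3%) were called there as well, against 25.7% of all.

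Genes of the splicing machinery were among those with changed exons. Over the 4 event types together 6145 of 58395 events were called, 10.5%, with a median ΔΨ of −0.00398. This share pools SE at 15% with MXE at 2%, so a list's share depends on its mix of types. Splits into higher and lower depend on it too, with 888 and 3929 among called SE and 412 and 246 among called A5SS. In the list of SR proteins and TRA2, 9 of 61 tested events (14.8%) were called in 7 genes, 3 higher and 6 lower, and among hnRNP genes 31 of 154 (20.1%) in 12 genes, 13 higher and 18 lower. Other splicing regulators had 37 of 362 called, 10.2% (11 higher, 26 lower), spliceosome components 57 of 452, 12.6% (15 and 42), and the CLK, SRPK and DYRK kinases 4 of 49, 8.16% (1 and 3). The median ΔΨ of these 5 lists lay between −0.0088 for the kinases and −0.000168 for SR proteins.

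HNRNPC, which binds uridine tracts in nascent RNA, gave the most deeply covered of all named changes. The longer donor form, which adds the 39 nt printed above and is known as hnRNP C2, was at 0.419, 0.402 and 0.411 in DMSO and at 0.61, 0.625 and 0.626 with GSK591 on 6478 to 8751 reads (ΔΨ = 0.21, adjusted p = 1.85e-167). The longer form was thus the minor one in every DMSO library and the major one in every GSK591 library. HNRNPA2B1, which packages pre-mRNA, included a 136-nt exon marked for nonsense-mediated decay at 0.362, 0.413 and 0.357 in DMSO and at 0.189, 0.174 and 0.167 with GSK591 (adjusted p = 9.04e-37), and HNRNPH1, a binder of G tracts, a 92-nt exon of that kind at 0.878 ± 0.0104 and 0.727 ± 0.0369 (adjusted p = 1.54e-20).

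SRSF10, an SR-like protein, included its 51-nt exon at 0.913, 0.919 and 0.911 in DMSO and at 0.597, 0.659 and 0.66 with GSK591 (adjusted p = 2.67e-13). SRSF2, an SR protein that activates exons, has a 104-nt exon that targets its own mRNA for decay, and this was at 0.077, 0.0758 and 0.0853 in DMSO and at 0.0361, 0.0195 and 0.0295 with GSK591 (adjusted p = 5.76e-26). The change was small in ΔΨ, −0.051, but the groups were apart on at least 1795 reads. SRSF5 moved by 0.0495 in a donor choice (adjusted p = 0.0152) and lost the call without DMSO a or GSK591 a.

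In MBNL1, a regulator of developmental exons, the 36-nt exon 7 went from 0.672, 0.694 and 0.576 to 0.354, 0.428 and 0.372 (adjusted p = 1.11e-06). TIA1, which helps U1 bind weak donors, dropped its 33-nt exon 5 from 0.786, 0.83 and 0.785 to 0.591, 0.606 and 0.585 (adjusted p = 4.4e-05). PTBP2, the PTB form best known from neurons, raised a 34-nt exon from 0.64 ± 0.0808 to 0.813 ± 0.0493 (adjusted p = 0.0454), a call that was lost without DMSO a or b or GSK591 b or c. Of the kinases that phosphorylate splicing factors, CLK2 fell in an 85-nt exon from 0.734 ± 0.0475 to 0.448 ± 0.113 (adjusted p = 0.000233), and PRPF4B moved to a longer donor form from 0.399 ± 0.0967 to 0.748 ± 0.0689 (adjusted p = 0.000492).

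U2AF1, the small U2AF subunit that reads the AG of the acceptor, included a 67-nt exon at 0.556, 0.584 and 0.506 in DMSO and at 0.314, 0.301 and 0.278 with GSK591 on 847 to 1650 reads (adjusted p = 4.22e-36). PRPF40B dropped its 111-nt exon 7 from 0.831 ± 0.0283 to 0.463 ± 0.0542 (adjusted p = 1.18e-06), an exon that begins at the same position as its acceptor event above, so both rest partly on the same reads. PRPF39, another U1-associated protein, had a 100-nt exon marked for decay at 0.36 ± 0.0261 and 0.127 ± 0.0293 (adjusted p = 6.41e-10).

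The arginine methylation and snRNP assembly list held 16 called events of 125 (12.8%, beside 10.5% over all events), 12 of them lower. In GEMIN7, of the SMN complex that loads Sm proteins onto snRNA, an untranslated exon of 123 nt went from 0.742, 0.79 and 0.734 to 0.699, 0.579 and 0.54 (adjusted p = 0.000251). The same exon differed by −0.16 between DMSO at 7 and at 4 days, beside −0.149 with GSK591. PRMT2 rose from 0.834 ± 0.0827 to 0.966 ± 0.0231 for its 172-nt exon 11 (adjusted p = 0.0116), and lost the call without DMSO a or GSK591 b. SMN1, which shares reads with its near-identical copy SMN2 and is therefore uncertain, fell from 0.954 ± 0.0188 to 0.854 ± 0.0364 (adjusted p = 0.0378) and lost the call when DMSO a, b or c or GSK591 a or c was left out.

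For PRMT5 itself, the event with the most reads, a 119-nt exon, had Ψ from 0.987 to 0.998 in DMSO and from 0.998 to 1 with GSK591 (adjusted p = 0.204). The most covered events of CHTOP, ALYREF and SNRPB, PRMT substrates or partners in export and splicing, lay above 0.97 in all libraries and were not called, with ΔΨ of −0.00575, −0.00102 and 0.000296. An event at such a level shows only that its exon is nearly always included, not that the gene has no other change.

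Of mRNA export factors, 19 of 176 events were called, 10.8% beside the 10.5% over all events, with 17 of them lower. Among their SE 14 of 81 were called in 5 genes, 17.3% beside 15% of all SE. All 14 fell, as did 3929 of the 4817 called SE, and events of one gene can share reads. POLDIP3 fell from 0.631, 0.538 and 0.516 to 0.348, 0.4 and 0.37 in a 138-nt coding exon (adjusted p = 0.000443), beside a difference of −0.174 between the DMSO days. NCBP2, the small subunit of the nuclear cap-binding complex, moved to a longer donor form from 0.755 ± 0.0458 to 0.89 ± 0.0432 (adjusted p = 8.34e-05). In ZC3H14, a poly(A)-binding zinc finger protein, exon 11 had Ψ of 0.902, 1 and 1 in DMSO and 0.36, 0.624 and 0.807 with GSK591 on only 20 to 40 reads. Its adjusted p of 0.014 passed, but not without DMSO b or c or GSK591 a.

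Events of the p53 and apoptosis list were called in 32 of 209 (15.3%, beside 10.5% over all events), 8 higher and 24 lower. MDM4, a p53 inhibitor, yields a short form when its exon 6, printed above, is skipped, and the transcript then shifts frame. Inclusion was 0.673, 0.78 and 0.805 in DMSO and 0.527, 0.36 and 0.213 with GSK591 on 21 to 74 reads, with no overlap (ΔΨ = −0.39, adjusted p = 4.17e-05). The better covered 150-nt exon 9 of MDM4 was not called, at 0.924 ± 0.024 and 0.859 ± 0.0198 (adjusted p = 0.498). BCL2L12 fell in a 140-nt exon from 0.632, 0.695 and 0.868 to 0.282, 0.613 and 0.305 (adjusted p = 0.00192) and lost the call without DMSO c or GSK591 a. PIDD, of a caspase-2 platform, moved to a longer donor form from 0.594 ± 0.0721 to 0.759 ± 0.024 (adjusted p = 0.0118), though not without DMSO b.

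DNA repair genes held 124 called events of 973 (12.7%, beside 10.5% over all events), 26 higher and 98 lower, over 48 genes. RAD52, a recombination mediator, had an exon of 122 nt at 0.728, 0.781 and 0.874 in DMSO and at 0.319, 0.333 and 0.344 with GSK591 on 30 to 50 reads (adjusted p = 0.000197), and the same exon differed by −0.364 between DMSO at 7 and at 4 days. ALKBH3, a demethylase of alkylated bases, dropped its 89-nt exon 7 from 0.798, 0.746 and 0.739 to 0.406, 0.427 and 0.426 (adjusted p = 2.56e-06), while the DMSO days differed by 0.000927. RAD51D, a protein of homologous recombination, swapped a 96-nt exon for a 119-nt one, from 0.451, 0.427 and 0.493 to 0.865, 0.838 and 0.88 (adjusted p = 0.0128), a call lost without DMSO a or b or GSK591 b. KAT5 and TIMELESS were not called in their most covered events, with adjusted p of 0.893 and 0.056, and TIMELESS passed, at 0.0271, without GSK591 c.

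For mitosis and cell division 103 of 954 events were called, 24 higher and 79 lower, a share of 10.8% beside the 10.5% over all events. ASPM, a spindle-pole protein, has a 4755-nt exon 18 whose inclusion was 0.662, 0.66 and 0.725 in DMSO and 0.207, 0.371 and 0.359 with GSK591 (adjusted p = 5.41e-31), beside a difference of −0.203 between the DMSO days. CDC25C, the phosphatase that activates CDK1, dropped its 95-nt exon 3 from 0.618, 0.624 and 0.685 to 0.325, 0.332 and 0.107 (adjusted p = 9.55e-09). TUBGCP6, of the gamma-tubulin ring complex, moved to a longer donor form from 0.363 ± 0.0737 to 0.684 ± 0.0905 (adjusted p = 0.00994), and lost the call without DMSO b or GSK591 b. Its segment lies inside an intron called more retained, and the part of retained-intron reads in this value was not tested.

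Genes with epithelial and mesenchymal isoforms had 84 called events of 593 (14.2%, beside 10.5% over all events) in 36 genes, 24 higher and 60 lower. CD47, the surface signal that restrains phagocytosis, has alternative exons in its cytoplasmic tail, and the 32-nt exon printed above was included at 0.725, 0.732 and 0.714 in DMSO and at 0.42, 0.407 and 0.399 with GSK591 (ΔΨ = −0.32, adjusted p = 5.02e-18). Its replicates differed by about 0.01 in both groups, and the DMSO days by −0.00397. TCF7L2, a Wnt pathway transcription factor, dropped its 51-nt exon 13 from 0.535 ± 0.0404 to 0.273 ± 0.0621 (adjusted p = 0.000679). SYNE2, a nesprin, gained a 69-nt exon from 0.174, 0.231 and 0.168 to 0.357, 0.369 and 0.642 (adjusted p = 0.0492), and lost the call when DMSO a, b or c or GSK591 b or c was left out.

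In the list of classic mutually exclusive exon genes 65 of 308 events (21.1%) were called, 32 higher and 33 lower, over 20 of 30 genes tested. The share over all events was 10.5%. DNM1L, which divides mitochondria, dropped the in-frame 33-nt exon printed above from 0.623, 0.537 and 0.662 to 0.359, 0.247 and 0.275 (adjusted p = 8.62e-08). ACTN4, an actin crosslinker, had a 66-nt exon at 0.961, 0.953 and 0.937 in DMSO and at 0.631, 0.738 and 0.401 with GSK591 (adjusted p = 1.78e-07). FGFR3, a receptor tyrosine kinase whose ligand binding depends on alternative exons, included a 151-nt exon at 0.403, 0.364 and 0.469 in DMSO and at 1, 0.878 and 1 with GSK591 (adjusted p = 0.000605). With only 24 and 22 reads and no skipping read in GSK591 a and c, counting error allows a skipped share of up to 20.1% and 21.5% there.

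The chromatin enzymes had 49 of 543 events called, 11 higher and 38 lower, a share of 9.02% beside 10.5% over all events. SIRT7, a nucleolar deacylase, dropped its 99-nt exon 6 from 0.82, 0.842 and 0.881 to 0.488, 0.495 and 0.484 (ΔΨ = −0.36, adjusted p = 1.52e-20). SIRT6, a related deacylase, dropped an 84-nt exon from 0.947 ± 0.0469 to 0.668 ± 0.144 (adjusted p = 2.18e-05). CREBBP, a histone acetyltransferase, dropped a 45-nt exon from 0.876, 0.871 and 0.885 to 0.419, 0.733 and 0.63 (adjusted p = 1.67e-05), with a wider spread among the GSK591 libraries than in DMSO.

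Nonsense-mediated decay factors had 8 of 103 events called (7.77%), 2 higher and 6 lower, and the DEAD and DEAH box helicases 32 of 323 (9.91%), 8 and 24. Over all events the share was 10.5%. UPF1, the central decay helicase, moved by 33 nt to a longer donor form from 0.182, 0.185 and 0.139 to 0.29, 0.286 and 0.255 (adjusted p = 0.00732), a call lost without GSK591 b. SMG9 shifted between a pair of exons by only −0.0781 (adjusted p = 0.0432), and lost the call when DMSO a, b or c or GSK591 b or c was left out. DHX34 fell by 0.148 in a 75-nt exon (adjusted p = 5.22e-06), DDX42 rose by 0.133 in an untranslated 71-nt exon (adjusted p = 5.22e-07), and DDX11, a helicase with near-identical copies that make its reads uncertain, went from 0.109 ± 0.0279 to 0.364 ± 0.156 in an acceptor choice (adjusted p = 1.7e-06). The DDX11 segment, like that of TUBGCP6, lies inside an intron called more retained, and the part of its reads was not tested.

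**Figure D4:**
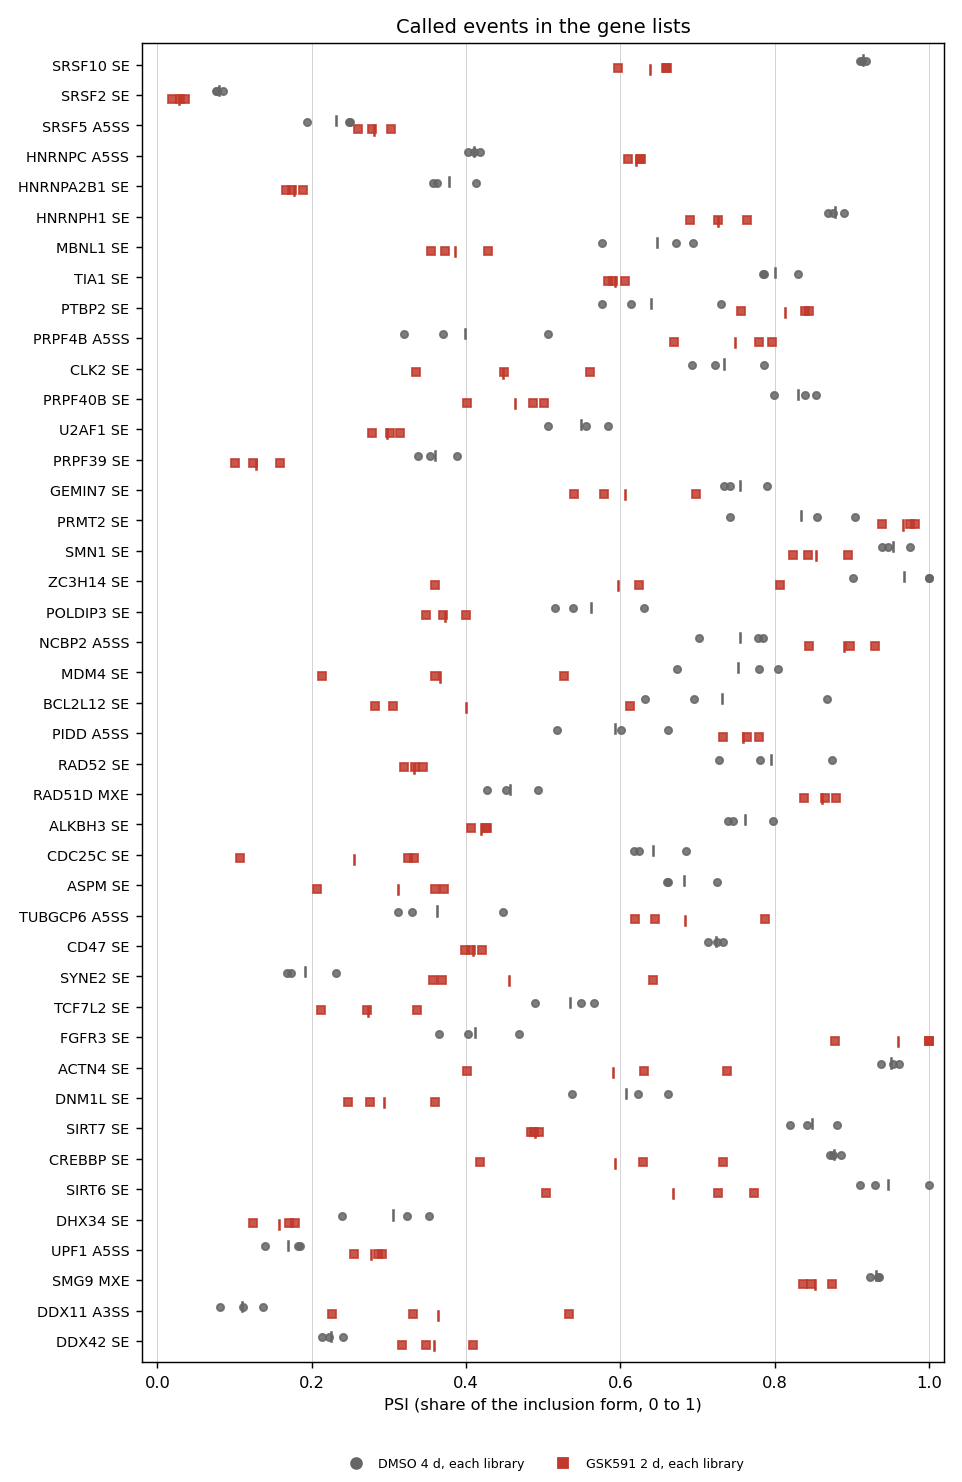
Ψ (horizontal axis, 0 to 1) of the 43 called events named from the gene lists, with a circle for each DMSO library, a square for each GSK591 library and a short vertical line at each group's mean. Groups are apart in all 43, as in most called events of each type. They range from the tight sets of HNRNPC, CD47 and SIRT7 to the wide GSK591 sets of ZC3H14 and ACTN4.

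Under limma 9 of these 43 list events stayed called, those of SRSF10, HNRNPC, PRPF4B, PRPF40B, RAD52, RAD51D, FGFR3, ACTN4 and SIRT7. Holding each event's own dispersion where it exceeded the shared one ended the calls of PTBP2, GEMIN7, BCL2L12, SYNE2, SMG9 and SRSF5, and of MPPE1 among the leading MXE.

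The 7-day libraries, 3 with GSK591 and 3 taken as 7-day DMSO, share by this reading no library with the 2-day comparison. There 4601 of 25895 SE were called, 17.8%, with 2648 lower (10.2%) and 1953 higher (7.54%), beside 3929 and 888 at 2 days. Whether this split differs between the days was not tested. Of the SE called at 2 days and tested at both times, 1700 were called in the same direction at 7 days, which is 40.8% of the 2-day list and 39.1% of the 7-day list, and 101 were called in opposite directions. The sign was shared by 83.1% of the 2-day calls and by 64.5% of all SE. Median ΔΨ of the exons that fell was −0.0874 at 2 days and −0.0275 at 7 days, for a list chosen by its 2-day values.

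Of the A5SS calls, 317 were shared in the same direction, 50.7% of the 2-day and 55.4% of the 7-day list. The overlap was 111 for A3SS (41.3% and 28.8%) and 140 for MXE (60.1% and 21.4%), where 7 days with GSK591 gave 589 called A5SS (23.6% of those tested), 398 A3SS (10.4%) and 659 MXE (6.53%). Of the 16 leading exons 15 could be tested at 7 days, all 15 had the same sign and 11 were called again in the same direction. Of all SE tested at both times 18.8% were called at 7 days. Among the 43 called list events 39 could be tested, 34 had the same sign and 21 were called again in the same direction. Picked for similar differences at both times, TMEM256-PLSCR3 had a ΔΨ of −0.466 at 2 and −0.469 at 7 days, RNF216 0.515 and 0.422, NT5C 0.405 and 0.48, PCNT −0.444 and −0.514, and DNM1L −0.314 and −0.308. Of the 18 leading MXE, A3SS and A5SS, 17 could be tested at 7 days, 15 had the same sign and 11 were called again in the same direction. Smaller or opposite differences at 7 days were seen in MGAT4B (−0.343 at 2 and −0.0464 at 7 days), FXYD5 (−0.365 and −0.0974), C1orf63 (−0.345 and 0.135), FAM98C (−0.253 and 0.0147) and MPPE1 (−0.246 and −0.0202), and whether these effects differ between the days was not tested.

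**Figure D5:**
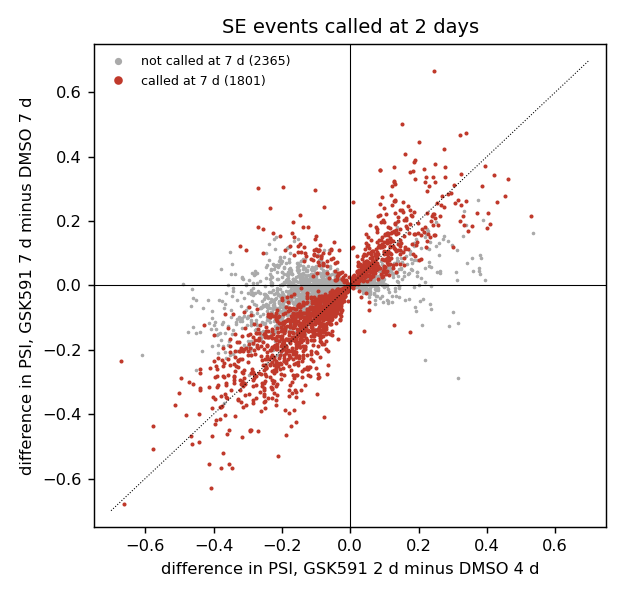
Difference in Ψ of the SE called at 2 days that were also tested at 7 days, with the 2-day difference on the horizontal axis and the 7-day difference on the vertical axis, each against its own DMSO libraries. Most points share the sign of both differences, 83.1% in all, and many exons that fell at 2 days lie near 0 at 7 days.

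A test of the difference between both effects called 1179 of 23159 SE, 5.09%, of which 969 had the lower ΔΨ at 2 days. SIRT7 is one of these, at −0.359 with GSK591 for 2 days and 0.00258 for 7 days (adjusted p = 1.38e-08), as is TIA1, at −0.207 and 0.0833 (adjusted p = 0.000275). The 2-day and 7-day effects rest on controls of different days relative to treatment, so the time in culture and the time with the agent cannot be told apart in this difference. On simulated counts this test recovered 13% of SE whose effect differed by 2 on the log2 odds scale. An SE it did not call may thus well differ between the days.

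MS023, an inhibitor of type I PRMTs given at 1 µM for 2 days, allows a comparison with GSK591 on the same day. The 2 agents differed in 6344 of 32326 SE, 19.6%, with Ψ lower under GSK591 in 4140 (12.8%) and higher in 2204 (6.82%), and in 781 A5SS (28.6%), 467 A3SS (11.1%) and 550 MXE (3.98%). This comparison uses the same GSK591 libraries as the one against DMSO, so its values are set beside those above only for named events. Of the 16 leading exons 15 differed from MS023 in the same direction, the exception being HSD3B7 at −0.247 (adjusted p = 0.0589). These exons were picked for extreme values in the same GSK591 libraries, which favours a shared direction, and 19.6% of all SE were called here. For SUN1 the difference was −0.329 against MS023 and −0.472 against DMSO, for CD47 −0.448 and −0.315, for HNRNPC 0.213 and 0.21, for MDM4 exon 6 −0.42 and −0.386, and for GEMIN7 0.0323 and −0.149, the last with an adjusted p of 0.331 against MS023.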

How the data were processed

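Poly(A) RNA of A549 cells was sequenced by the study as 150-nt read pairs of stranded libraries. Per the labels and the study's methods, the authors trimmed reads (Trim Galore 0.6.5), aligned them to hg19 (STAR 2.4.2a) and listed and counted events with rMATS. The deposited values used here are whole-number read counts of the inclusion and the skipping form, per event and library, with reads inside the segment included and no normalization, beside the effective length of each form. The authors' columns of p-value, FDR and inclusion difference hold their own comparisons and were not used. Counts of 3 libraries share a cell without names, so libraries were called a, b and c by position. No column of another series was found (0 per-sample columns left unmapped). A read is counted once for each event it touches, and SE counts summed to 51231837 to 66423861 per library.

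Ψ was computed from counts over effective lengths. Each event was fitted with a 2-group quasi-binomial model in R 4.3.3, its dispersion moderated with limma 3.58.1 (squeezeVar) and held at 1 or above, and tested by F, with Benjamini-Hochberg adjustment within an event type. For SE and A3SS the moderation returned one dispersion for all events. Tested events had at least 10 reads in every library and 10 of the less used form in all, and a call was an adjusted p under 0.05. On simulated counts for SE with 200 events changed by 1 or 2 on the log2 odds scale, 5% and 34% were recovered with 2 and 7 false calls, so an uncalled SE may well have changed. The simulation gave all events of a type the same dispersion, so it does not check false calls where events differ in spread. Counting floors used 3 reads and cover counting error only. Replicates differed by more than sampling noise in every pair, so none was merged.

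Named were, per type, the called events with the largest change in either direction (8 each way for SE, 3 for the others; at least 50 reads in every library, 1 per gene), up to 3 called events per gene list (at least 20 reads), and the most read events of PRMT5, CHTOP, ALYREF, SNRPB, MDM4, KAT5 and TIMELESS. The members, lists and rules were chosen with earlier results of these data known. Exons were matched to GENCODE v44 lifted to GRCh37, and 99.8% of tested exons showed GT or GC and AG at their borders there. Site scores used 9 bases at 5′ and 23 at 3′ sites, weighted from 300873 and 300290 annotated sites. Alternatives were limma on log ratios (0.5 added to each count), other read minimums, one event per segment, adjustment over all 5 types, an event's own dispersion and leaving out each library.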

Additional observations from a re-analysis of the deposited data

Results flagged for a closer look

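The effect of GSK591 on SE, each against its own DMSO libraries, differed between 2 and 7 days in 1179 of 23159 exons tested (interaction term of the quasi-binomial model moderated with limma, 3843 at an unadjusted p under 0.05). The difference was towards lower ΔΨ at 2 days in 969 and towards higher in 210, and the signs were opposite in 806. Without 1 of the 12 libraries the count was 809 to 1164. The treatment's day and the controls' day move together here and cannot be told apart.

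Of the named exons that rose at 2 days, the difference between days was called for NDEL1 (ΔΨ 0.408 at 2 days and 0.189 at 7 days, adjusted p = 0.00111), NISCH (0.393 and 0.0183, adjusted p = 0.00501), FAM45A (0.378 and 0.0534, adjusted p = 0.045) and TMEM175 (0.361 and 0.0442, adjusted p = 0.00875). NDEL1 was called at both times, whereas the other 3 were not called at 7 days.

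Among those that fell it was called for SUN1 (−0.472 and −0.301, adjusted p = 0.0194), SDR39U1 (−0.439 and −0.271, adjusted p = 0.0294), NUP62 (−0.428 and −0.123, adjusted p = 3.71e-05), SRSF2 (−0.051 and −0.00864, adjusted p = 1.08e-06) and HNRNPA2B1 (−0.201 and −0.046, adjusted p = 1.00e-10). The fall was smaller at 7 days in all 5. ASPM (−0.37 and −0.0716, adjusted p = 4.31e-05) and SIRT7 (−0.359 and 0.00258, adjusted p = 1.38e-08) were close to their controls at 7 days, and TIA1 (−0.207 and 0.0833, adjusted p = 0.000275) and POLDIP3 (−0.189 and 0.0701, adjusted p = 0.00256) had the opposite sign there without being called. SUN1, SDR39U1, NUP62, HNRNPA2B1, ASPM, SIRT7 and POLDIP3 were also called lower in DMSO at 7 than at 4 days, with differences of −0.203 to −0.0817, and FAM45A was called higher (0.215, adjusted p = 0.0385). The part of the day in these differences was not tested.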

How the results depend on the processing

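No paired analysis was possible because the columns carry no replicate numbers. The planned edgeR alternative was not run, since the deposited cells join counts of 3 libraries and do not form a gene count table. Under limma the called counts were 646 SE, 59 MXE, 4 A3SS and 222 A5SS, and requiring a difference of at least 0.1 left 2028, 216, 131 and 331. For MXE, one event per segment left 244 and adjustment over all 5 types gave 752. All 3 GSK591 libraries lay beyond all 6 DMSO libraries in 2856 called SE, an alternative chosen after seeing the data, as was an event's own dispersion. Leaving out 1 library gave 173 to 443 MXE, with 173, 198, 191 and 233 without DMSO a, b and c and GSK591 b, and 712 to 1341 SE between the DMSO days. The mean Ψ difference of MXE ranged from −0.00589 to 0.0048, and it turned positive without GSK591 a. The other counts of calls stayed within 1.5 times. Of the 84 named events, limma ended the call of 49 and added that of ALYREF (adjusted p = 0.046), no called named difference changed sign under the alternatives run, and the cause of these losses was not tested. Simulated SE changes of 1 on the log2 odds scale were found in 5% of cases, and the part of depth in this was not tested.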
